A study of Mus musculus with 8 samples.

Results

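Transcripts of the oxygen-sensing pathway, of genes that respond to hypoxia and of the glycolytic enzymes were followed in mouse embryonic fibroblasts with and without the transcription factors STAT5A and STAT5B. The 38 genes were chosen by name for their known roles, with earlier results of these data known. Of these, 35 had a probe set that the array annotation gives to that gene alone, and the probe set with the highest mean over all arrays stood for the gene. Bnip3l, Gpi1 and Eno1 had no such probe set and were not analysed here. The 35 genes are among 18193 genes tested on 8 arrays.

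The cells were cultured fibroblasts of C57BL/6 embryos at passage 13, all starved for 5 hours before the treatment. The 4 groups were wild-type cells left without growth hormone (GH), wild-type cells given GH at 1 ug/ml for 2 hours, Stat5a/b-null cells left without GH, and Stat5a/b-null cells given the same GH treatment. Each group has 2 arrays, numbered 2 and 3, which are called biological replicates without a statement that they came from separate embryos or cultures. The p-values therefore measure the spread between these arrays. Wild-type cells are called control cells below. The labels and notes do not say how the cells were starved, at what oxygen level they were kept or which part of Stat5a and Stat5b was deleted.

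Cells sense oxygen through prolyl hydroxylases (the EGLN enzymes), which mark the alpha subunits of the hypoxia-inducible factor (HIF) for binding by VHL and destruction. When oxygen is low the alpha subunit, HIF1A or EPAS1, persists, pairs with ARNT and switches on genes for blood vessel growth, glucose uptake, glycolysis, mitochondrial turnover and collagen modification. HIF is controlled mainly through the stability of its alpha subunits, which an RNA measurement does not show. Glycolytic enzymes exist as isozymes from separate genes, and fibroblasts in culture typically use glycolysis heavily.

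All values are log2 expression values from the robust multi-array average (RMA), so a difference of 1 is a change by a factor of 2. Replicate arrays correlated between 0.9968 and 0.998 over all probe sets, and arrays of different genotype between 0.9601 and 0.9642. As a check of the labels, Stat5a stood at 7.15 and 7.83 in control cells without GH and at 5.59 and 5.73 in null cells without GH, under the first quartile over all genes (6.097). Stat5b stood at 7.97 and 8.06 against 7.31 and 7.33. Fibroblast markers were present in every group, with none of 12 below the first quartile, and 6 of them differed between the genotypes without GH (5 higher and 1 lower in null cells). Each of the 10 macrophage and leukocyte markers was lower in null cells with and without GH, and their summed level on the log2 scale lay between 14.53 and 14.67 on the control arrays and between 10.72 and 10.84 on the null arrays. In control cells none of these 10 markers lay below the first quartile, and in null cells 3 did so without GH and 5 with GH. Their part in the genotype differences below was not tested, and a different share of cells of a type cannot be told apart from a different amount of RNA per cell in these bulk samples. None of the 10 macrophage markers passed the test for GH in either genotype, and 1 passed the test for a GH response that differed between the genotypes.

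Promoter sequences are shown for 6 of the genes whose transcripts differed with GH in at least 1 genotype, Ankrd37, Adm, Eno2, Hk2, Bnip3 and Ddit4, so that the short motif bound by HIF can be seen beside the values. Each is the 250 bases before the annotated transcription start on the gene's own strand, 5′ to 3′, from RefSeq on mouse build GRCm38.p6, with ACGTG or GCGTG on either strand in capitals (on the opposite strand these read CACGT and CACGC).
Ankrd37, chr8:45999851-46000100, minus strand: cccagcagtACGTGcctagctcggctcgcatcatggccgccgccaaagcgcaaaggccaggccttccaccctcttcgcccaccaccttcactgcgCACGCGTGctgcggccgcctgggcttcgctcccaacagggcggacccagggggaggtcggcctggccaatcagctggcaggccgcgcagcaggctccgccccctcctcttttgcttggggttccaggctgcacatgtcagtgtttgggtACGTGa
Adm, chr7:110627407-110627656, plus strand: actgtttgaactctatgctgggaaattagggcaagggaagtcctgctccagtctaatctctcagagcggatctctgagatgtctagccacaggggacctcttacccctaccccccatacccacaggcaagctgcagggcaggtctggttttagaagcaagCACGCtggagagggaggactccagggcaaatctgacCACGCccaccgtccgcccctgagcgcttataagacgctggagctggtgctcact
Eno2, chr6:124769674-124769923, minus strand: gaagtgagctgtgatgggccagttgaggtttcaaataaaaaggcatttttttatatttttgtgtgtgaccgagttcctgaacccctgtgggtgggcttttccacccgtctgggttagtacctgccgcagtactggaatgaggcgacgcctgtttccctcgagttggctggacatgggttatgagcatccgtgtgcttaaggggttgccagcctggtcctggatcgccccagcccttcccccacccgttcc
Hk2, chr6:82774455-82774704, minus strand: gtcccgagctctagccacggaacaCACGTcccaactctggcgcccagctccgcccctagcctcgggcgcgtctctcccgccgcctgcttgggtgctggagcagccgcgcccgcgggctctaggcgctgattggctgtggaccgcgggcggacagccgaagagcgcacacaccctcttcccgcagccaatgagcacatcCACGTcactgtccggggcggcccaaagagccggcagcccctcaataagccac
Bnip3, chr7:138909507-138909756, minus strand: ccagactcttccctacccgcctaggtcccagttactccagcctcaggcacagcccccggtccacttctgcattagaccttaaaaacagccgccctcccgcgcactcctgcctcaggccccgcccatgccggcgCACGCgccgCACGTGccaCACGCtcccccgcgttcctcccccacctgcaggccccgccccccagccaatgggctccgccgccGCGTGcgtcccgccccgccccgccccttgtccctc
Ddit4, chr10:59951771-59952020, minus strand: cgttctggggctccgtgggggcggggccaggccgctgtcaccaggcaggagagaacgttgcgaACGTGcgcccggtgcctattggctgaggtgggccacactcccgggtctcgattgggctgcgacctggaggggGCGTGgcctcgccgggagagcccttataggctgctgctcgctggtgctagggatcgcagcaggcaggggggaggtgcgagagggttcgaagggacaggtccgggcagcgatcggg
Bnip3 has 5 matches in these bases and Ankrd37 4, in each case with overlapping matches on opposite strands counted separately. Adm, Hk2 and Ddit4 have 2 each, and Eno2 has none. Promoter windows of 300 bases, which run 50 bases past the start, were found for 32 of the 35 genes, and 29 of the 32 (90.6%) hold the motif at least once, against 59.3% of the genes on the arrays that have such a window and 46.7% of all genes with one. Some genes have several windows, and by window the shares are 81.8% of 44 against 54.6% for genes on the arrays. The genes were chosen for roles in hypoxia and glycolysis, so these shares are no test of the motif. The STAT palindrome TTCNNNGAA, which reads the same on both strands, is in the windows of 2 of the 32 (6.2%). It is in those of 8.6% of the genes on the arrays and 9.6% of all genes. A match describes the letters and not a bound site, and base composition was not matched between the genes.

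Without GH, the genes for HIF-regulated and glycolytic proteins differed between null and control cells in both directions. Of the 35 genes, 9 were higher and 13 lower in null cells, where 24.8% and 22.7% of all genes were, and 13 did not pass the test. They had a median log2 difference of 0.04 against 0.03 over all genes. The 22 called genes are 62.9% of the list, where 47.5% of all genes tested were called in this comparison (limma, Benjamini-Hochberg adjusted p below 0.05 over all genes). Dim genes, with a mean over all arrays under the first quartile, lower the share over all genes. With them left out, 22 of 34 listed genes and 8188 of 13645 genes were called. The arrays of both genotypes did not overlap for 27 of the 35, as for 68.8% of all genes. Without array 2 of the control cells Egln2 and Aldoa lost their calls, without array 3 of the control cells Pgam1 did (adjusted p = 0.104), and without array 2 of the null cells Egln2, Aldoa and Ldha did. Over the alternative settings the limma adjusted p of these 4 genes ran up to 0.0995 for Egln2, 0.135 for Aldoa, 0.104 for Pgam1 and 0.0646 for Ldha.

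**Figure D1:**
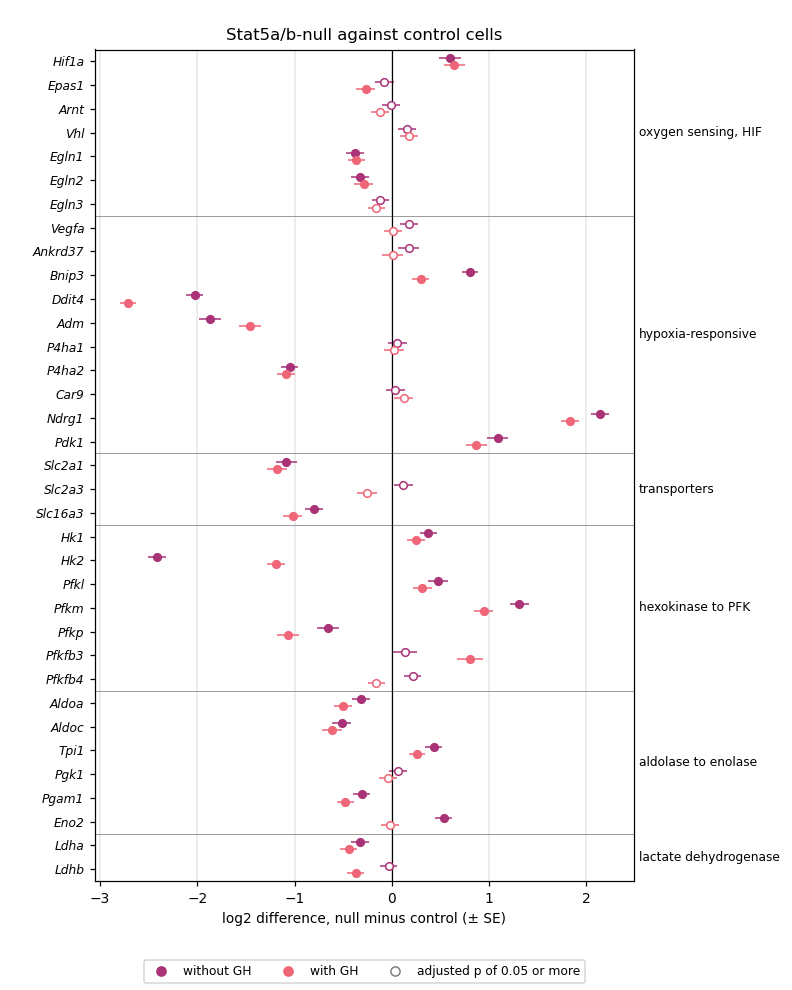
Log2 differences between Stat5a/b-null and control cells for the 35 genes, without GH (purple) and with GH (pink), with bars of 1 standard error (n = 2 arrays per group) and open symbols where the adjusted p was 0.05 or more. Hk2, Ddit4 and Adm lie at -1.19 or lower and Ndrg1, Pfkm and Pdk1 at 0.87 or higher in both GH states.

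Among the oxygen-sensing genes, Hif1a was higher in null cells and the hydroxylase genes Egln1 and Egln2 were lower. Hif1a, the gene of the oxygen-regulated subunit, stood at 12.17 and 12.35 in control cells and at 12.77 and 12.94 in null cells, with no overlap. The difference was 1.51-fold (log2 0.60 ± 0.11 SE, limma adjusted p = 0.000587), and of its other 3 probe sets those at 0.71 and 0.78 passed the test over all probe sets and the dimmest, at 0.24, did not. Egln1 was lower by a log2 difference of -0.38 ± 0.09 and Egln2 of -0.33 ± 0.10. The other probe set of Egln1 gave -0.11 ± 0.10 and did not pass the test. Arnt (-0.01 ± 0.09), which encodes the partner of both alpha subunits, Vhl (0.16 ± 0.09) and Egln3 (-0.12 ± 0.09) did not pass. The other probe set of Vhl was higher in null cells (0.36 ± 0.10, adjusted p = 0.013 over all probe sets), and the mean of both Vhl probe sets passed as well (0.26, limma adjusted p = 0.0222).

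The 2 probe sets of Epas1, the gene of the other alpha subunit, gave different answers. The one with the higher mean over all arrays (6.72) stood at 6.72 and 6.80 in control cells and at 6.77 and 6.60 in null cells, and did not pass the test (-0.08 ± 0.09, adjusted p = 0.559). The other, with a mean of 6.63, stood at 8.46 and 8.47 in control cells and at 4.93 and 4.85 in null cells. Because the null values are under the first quartile, no size is given for that difference. With GH both probe sets were lower in null cells, the first at 6.79 and 6.91 against 6.56 and 6.60 (-0.27 ± 0.09, adjusted p = 0.0336) and the second with means of 8.46 in control and 4.70 in null cells. Which transcripts of Epas1 each probe set detects was not analysed here, and the call without GH and the size of the difference rest on the choice of probe set.

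**Figure D2:**
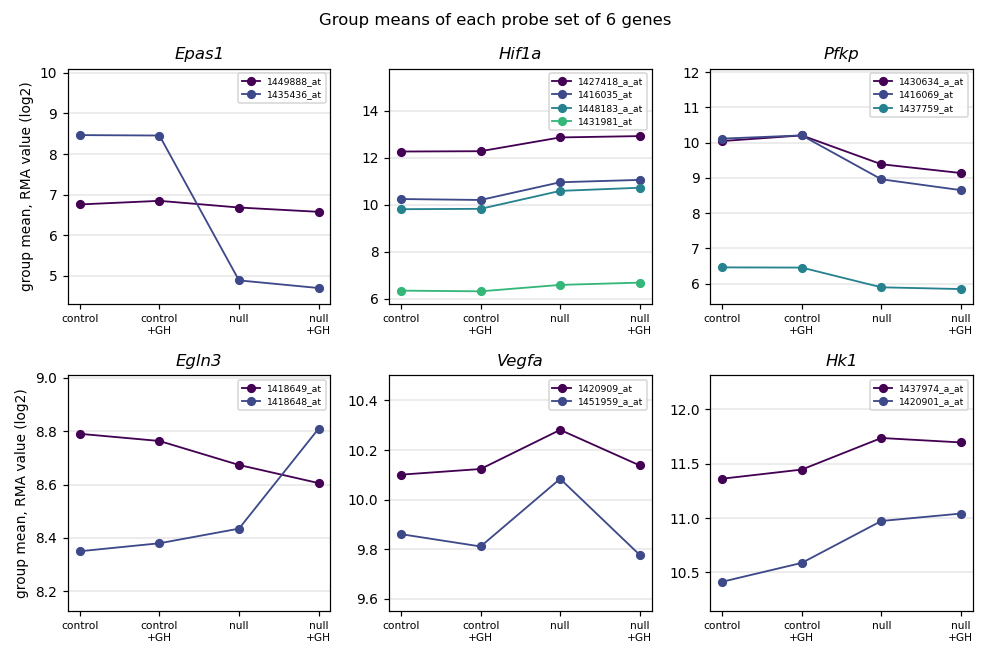
Group means (RMA, log2) of every probe set of 6 of the genes in the 4 groups, with 1 line per probe set and axes of different range. One probe set of Epas1 falls from about 8.46 in control cells to 4.89 and 4.70 in null cells while the other stays between 6.58 and 6.85, and in null cells with GH the probe sets of Egln3 stand at 8.61 and 8.81 in the reverse order of the other groups.

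The hypoxia-responsive genes outside glycolysis were split, with 3 of 10 higher, 3 lower and 4 not passing the test. Of all genes, 24.8% were higher and 22.7% lower in this comparison. Ddit4 encodes a stress-induced inhibitor of the growth kinase complex mTORC1. It stood at 12.44 and 12.47 in control cells and at 10.46 and 10.40 in null cells, a 4.07-fold lower level (-2.03 ± 0.09, adjusted p = 2.11e-09). Adm, the gene of the vasodilator peptide adrenomedullin, stood at 10.19 and 10.32 against 8.37 and 8.41, 3.64-fold lower (-1.86 ± 0.11, adjusted p = 4.53e-08). P4ha2, which encodes a collagen prolyl hydroxylase subunit, was 2.07-fold lower at 11.81 and 11.83 against 10.68 and 10.86, whereas the brighter probe set of its paralog P4ha1 did not pass (0.06 ± 0.10). The other probe set of P4ha1 was higher in null cells (0.31 ± 0.11, adjusted p = 0.047 over all probe sets). No control array overlapped a null array for these 3 lower genes.

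Ndrg1, a stress-responsive gene that HIF is known to induce, was 4.41-fold higher in null cells, at 11.94 and 12.12 against 9.94 and 9.84 (2.14 ± 0.09, adjusted p = 2.57e-09). All 5 of its probe sets were higher, by 1.90 to 2.31. Pdk1 encodes a kinase that switches off pyruvate dehydrogenase and so holds pyruvate back from the mitochondria. It was 2.12-fold higher, at 10.64 and 10.60 against 9.67 and 9.40 (1.09 ± 0.11, adjusted p = 3.85e-06). Bnip3, the gene of a receptor for the removal of mitochondria, was 1.75-fold higher (0.80 ± 0.08, adjusted p = 5.36e-06). Well-known HIF targets were among the genes that did not pass, with Vegfa, the gene of the main endothelial growth factor, at 0.18 ± 0.09 (adjusted p = 0.137), Ankrd37 at 0.18 ± 0.11 and Car9, a carbonic anhydrase gene near the first quartile in every group, at 0.04 ± 0.10. With the mean of its probe sets Vegfa passed (0.20, limma adjusted p = 0.0415).

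Of the 3 transporter genes, 2 were lower in null cells and none higher, where 22.7% and 24.8% of all genes were. Slc2a1, which encodes the widely expressed glucose transporter, stood at 11.16 and 11.41 in control cells and at 10.18 and 10.22 in null cells, 2.12-fold lower (-1.08 ± 0.11, adjusted p = 3.22e-06), and its other probe sets gave -0.93 and -0.92. Slc16a3, the gene of a lactate exporter of glycolytic cells, was 1.74-fold lower (-0.80 ± 0.10, adjusted p = 1.89e-05). Slc2a3, the gene of another glucose transporter, did not pass (0.12 ± 0.10).

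Isozyme genes of the early steps of glycolysis went in opposite directions. Hk2, the gene of the inducible hexokinase that phosphorylates glucose on the outside of mitochondria, stood at 10.67 and 10.66 in control cells and at 8.18 and 8.32 in null cells. That is 5.34-fold lower (-2.42 ± 0.09, adjusted p = 8.15e-10), the lowest difference among the 35 genes, while the constitutive isozyme gene Hk1 was 1.30-fold higher (0.37 ± 0.09). Of the phosphofructokinase genes, the muscle-type gene Pfkm stood at 10.52 and 10.34 against 11.67 and 11.81, 2.48-fold higher in null cells (1.31 ± 0.10, adjusted p = 2.48e-07), and the liver-type gene Pfkl was 1.39-fold higher (0.47 ± 0.10). The platelet-type gene Pfkp was lower (-0.66 ± 0.11), and of its other probe sets one gave -1.15 and one was lower but dim in null cells. Pfkfb3 and Pfkfb4, which encode enzymes that set the level of a phosphofructokinase activator, did not pass without GH (0.13 ± 0.13 and 0.22 ± 0.08).

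Of the 8 genes from aldolase to lactate dehydrogenase, 2 were higher and 4 lower in null cells, where 24.8% and 22.7% of all genes were. Aldoa (-0.32 ± 0.10), Pgam1 (-0.31 ± 0.09) and Ldha, the gene of the lactate dehydrogenase subunit that favours lactate production (-0.33 ± 0.09), were lower in null cells, by 1.24-fold to 1.26-fold. The other 4 probe sets of Aldoa did not pass the test over all probe sets. Ldha stood at 13.89 and 13.84 in control cells and at 13.49 and 13.59 in null cells. Tpi1, the triose phosphate isomerase gene, was 1.35-fold higher (0.43 ± 0.08), and Eno2, the gene of the neuronal-type enolase, was 1.45-fold higher (0.53 ± 0.09, adjusted p = 0.000321). Pgk1 (0.06 ± 0.09) and Ldhb (-0.03 ± 0.09) did not pass. Aldoc was lower too, but its null values lay below the first quartile and the size is not given.

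With GH present, 24 of the 35 genes differed between the genotypes (9 higher and 15 lower in null cells, median -0.16 against -0.02 over all genes), where 45.3% of all genes were called (22.2% higher and 23.1% lower). With dim genes left out, 24 of 34 listed genes and 7922 of 13645 genes were called. The arrays of both genotypes did not overlap for 30 of the 35, as for 72.1% of all genes. Of the 35 genes, 8 were higher in null cells whether or not GH was given, 13 were lower in both states and 10 were called in neither, while 37% of all genes were called in 1 direction in both states. No gene was called in opposite directions. Ddit4 differed more with GH, at 12.53 and 12.50 in control cells against 9.74 and 9.86 in null cells (6.55-fold lower, -2.71 ± 0.09, adjusted p = 1.56e-10). Hk2 differed less, at 10.65 and 10.57 against 9.48 and 9.35 (2.29-fold lower, -1.19 ± 0.09, adjusted p = 4.29e-07). Eno2 no longer differed past the test, at 9.34 and 9.23 against 9.26 and 9.27 (-0.02 ± 0.09). Pfkfb3 was higher in null cells with GH (1.75-fold, 0.80 ± 0.13, adjusted p = 0.00024) and Ldhb lower (-0.37 ± 0.09).

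The other large differences seen without GH were also present with GH. Ndrg1 was 3.56-fold higher and Pfkm 1.92-fold higher in null cells, Adm was 2.74-fold lower, Slc2a1 2.27-fold lower, P4ha2 2.13-fold lower and Pfkp 2.10-fold lower. Hif1a remained higher, at 13.01 and 12.82 against 12.35 and 12.19 (0.64 ± 0.11, adjusted p = 0.000355). Slc16a3 was 2.03-fold lower. Epas1 lost its call with a replicate block in the model, a common array median, renewed quantile normalization or a variance trend. Hk1 lost its call with the replicate block and Egln2 with the common median. Leaving out 1 array of the GH groups also removed calls near the threshold. Epas1, Hk1 and Tpi1 lost theirs without any 1 of the 4 arrays, Egln2 without either control array or array 2 of the null cells, Pfkl without either control array or array 3 of the null cells, and Bnip3 without either control array. Their limma adjusted p then ran up to 0.228 for Epas1, 0.189 for Hk1, 0.166 for Tpi1, 0.207 for Egln2, 0.123 for Pfkl and 0.0671 for Bnip3.

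**Figure D3:**
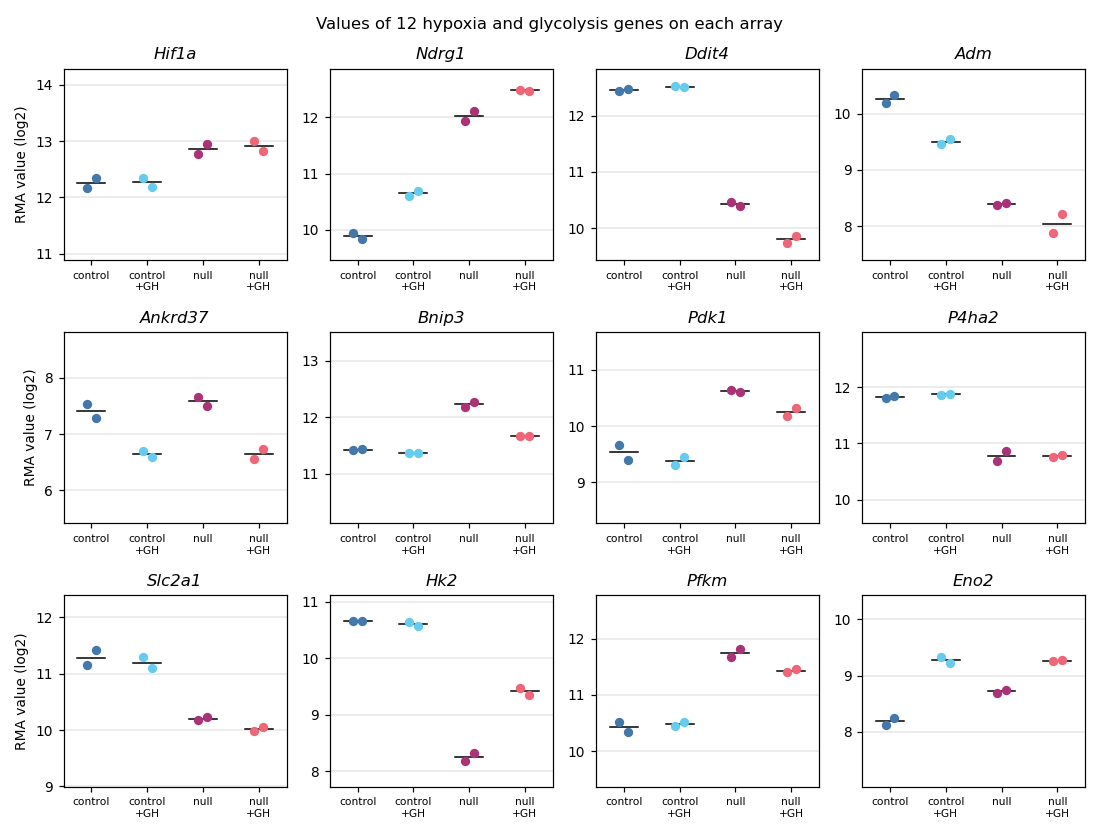
RMA values (log2) of 12 of the genes on each of the 8 arrays, with 2 points per group and a bar at the group mean. Every panel spans the same height. Hk2 stands higher with GH on the null arrays, at 9.48 and 9.35 against 8.18 and 8.32, while Ankrd37 is lower with GH in both genotypes.

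In control cells, GH for 2 hours changed 4 of the 35 genes, 2 upward and 2 downward, where 2.62% of all genes were called (1.72% upward and 0.896% downward). With dim genes left out, 4 of 34 listed genes and 493 of 13645 genes were called. Eno2 rose 2.14-fold, from 8.12 and 8.25 without GH to 9.34 and 9.23 with GH (1.10 ± 0.09, adjusted p = 1.05e-05). Ndrg1 rose 1.70-fold, from 9.94 and 9.84 to 10.60 and 10.69 (0.76 ± 0.09, adjusted p = 0.000431). All 5 probe sets of Ndrg1 were higher with GH, by 0.52 to 0.79.

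The HIF target Ankrd37, whose protein carries ankyrin repeats, fell 1.71-fold in control cells, from 7.53 and 7.29 to 6.69 and 6.59 (-0.77 ± 0.11, adjusted p = 0.00142). Adm fell 1.69-fold, from 10.19 and 10.32 to 9.46 and 9.54 (-0.76 ± 0.11, adjusted p = 0.00221), and its other probe set gave -0.79. No array with GH overlapped one without GH for these 4 genes, and 14 of the 35 had arrays that did not overlap, against 38.5% of all genes. Without array 2 or array 3 of the control cells with GH, 295 and 316 of all genes were called in place of 476. All 4 kept their calls with any 1 array left out and under the other settings tried. The other 31 did not pass, among them Hif1a (0.01 ± 0.11), Vegfa (0.02 ± 0.09), Slc2a1 (-0.09 ± 0.11), Hk2 (-0.06 ± 0.09) and Ldha (-0.02 ± 0.09). The median over the 35 was 0.01, against -0.02 over all genes.

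In null cells, GH changed 10 of the 35 genes, 4 upward and 6 downward, where 11.7% of all genes were called. With dim genes left out, 12 of 34 listed genes and 2457 of 13645 genes were called. Hk2 rose 2.25-fold, from 8.18 and 8.32 to 9.48 and 9.35 (1.17 ± 0.09, adjusted p = 6.59e-06), which left it below the control arrays. Eno2 rose 1.46-fold, from 8.69 and 8.75 to 9.26 and 9.27 (0.54 ± 0.09, adjusted p = 0.00229). Ndrg1 (0.45 ± 0.09, adjusted p = 0.0092) and Pfkfb3 (0.49 ± 0.13, adjusted p = 0.0325) also rose.

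Ankrd37 fell 1.91-fold in null cells, from 7.67 and 7.51 to 6.57 and 6.74 (-0.94 ± 0.11, adjusted p = 0.000187). Ddit4 fell 1.55-fold, from 10.46 and 10.40 to 9.74 and 9.86 (-0.63 ± 0.09, adjusted p = 0.000705), and Bnip3 fell 1.48-fold, from 12.19 and 12.26 to 11.66 and 11.66 (-0.56 ± 0.08, adjusted p = 0.00116). Pdk1 (-0.37 ± 0.11, adjusted p = 0.0469), Pfkfb4 (-0.35 ± 0.08, adjusted p = 0.0205) and Ldhb (-0.32 ± 0.09, adjusted p = 0.0344) fell by less. Adm stood at 8.37 and 8.41 without GH and at 7.87 and 8.21 with GH, and did not pass (-0.35 ± 0.11, adjusted p = 0.0707), though it did without array 3 of the null cells with GH (-0.52, limma adjusted p = 0.0299).

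The median over the 35 genes in null cells was -0.14, against -0.07 over all genes. Of the 35 genes, 24 had arrays that did not overlap between the GH states, against 55.1% of all genes, and 3 were called with at least 1.5-fold, against 3.1%. Of all genes, 5.36% rose and 6.35% fell, and this split turned to 1144 rising and 726 falling when the arrays were shifted to a common median, under which 4 of the 35 genes rose and 4 fell. The 10 calls became 5 without array 2 of the null cells without GH, 5 without array 2 and 6 without array 3 of the null cells with GH. The calls over all genes fell alongside, from 2130 to 984, 818 and 1034. Hk2, Eno2, Ankrd37, Ddit4 and Bnip3 were called under each of the settings other than the fold limit. Pdk1 and Ldhb lost their calls with a replicate block in the model and with the common median, and Pdk1 also with renewed quantile normalization. Ndrg1, Pdk1, Pfkfb3, Pfkfb4 and Ldhb each lost their call without array 2 of the null cells without GH and without either null array with GH. Pdk1, Pfkfb4 and Ldhb also lost it without array 3 of the null cells without GH, and Pdk1 and Ldhb without either control array with GH, with limma adjusted p up to 0.0834 for Ndrg1, 0.283 for Pdk1, 0.254 for Pfkfb3, 0.113 for Pfkfb4 and 0.204 for Ldhb.

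**Figure D4:**
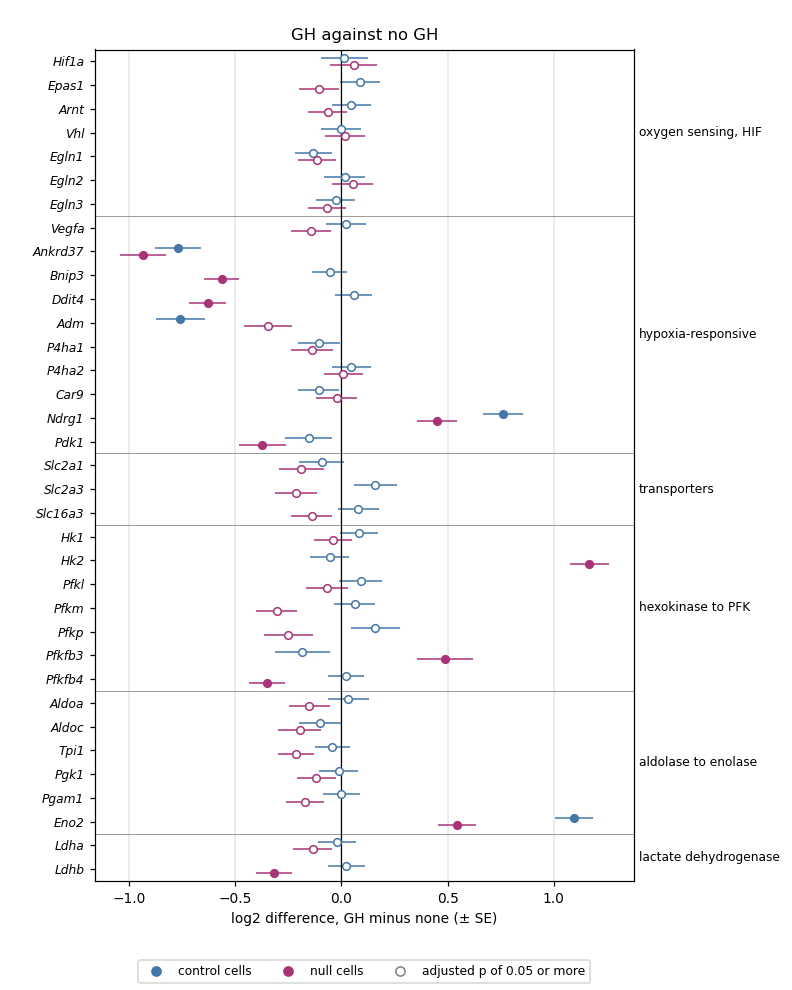
Log2 differences between cells with and without GH for the 35 genes in control (blue) and null (purple) cells, with bars of 1 standard error (n = 2 arrays per group) and open symbols where the adjusted p was 0.05 or more. Ankrd37 lies on the lower side and Eno2 and Ndrg1 on the higher side in both genotypes, and Hk2 lies at -0.06 in control and 1.17 in null cells.

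Across both genotypes, 2 of the genes rose with GH in each (Eno2 and Ndrg1) and 1 fell in each (Ankrd37), and 24 were called in neither, while 0.967% of all genes were called in 1 direction in both. The difference between the GH responses was tested as the interaction, in which 4 of the 35 genes were called (1 upward and 3 downward) against 5.16% of all genes (2.83% upward and 2.33% downward). With at least 1.5-fold, 2 of them and 3.88% of all genes were called. With dim genes left out, 5 of 34 listed genes and 1125 of 13645 genes were called. Hk2 responded more upward in null cells (1.22 ± 0.13, adjusted p = 0.000191). Ddit4 (-0.69 ± 0.12, adjusted p = 0.00692), Eno2 (-0.55 ± 0.13, adjusted p = 0.0276) and Bnip3 (-0.51 ± 0.12, adjusted p = 0.0287) responded less upward or more downward in null cells.

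With the arrays shifted to a common median the interaction called 2 genes upward and 2 downward in place of 1 and 3. Under this shift Pfkfb3 was called (0.74, limma adjusted p = 0.0374) and Bnip3 was not (-0.44, adjusted p = 0.0526). In the main fit Pfkfb3 did not pass the interaction test (0.67, limma adjusted p = 0.0609), and 6 of 15 alternatives called it. Over all genes the interaction calls went from 938 to between 437 and 872 with 1 array left out. The Hk2 and Ddit4 calls were kept without any 1 array. The Bnip3 call was lost without each of the 8 arrays in turn (limma adjusted p from 0.0525 to 0.105), and the Eno2 call without any 1 array except array 3 of the control cells without GH (up to 0.124). Ankrd37 (-0.16 ± 0.15), Ndrg1 (-0.31 ± 0.13, adjusted p = 0.252) and Adm (0.41 ± 0.16, adjusted p = 0.197) did not pass the interaction test, which leaves differences of that size undecided with 2 arrays per group.

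Other genes of the HIF pathway were taken from a list of 25, of which 24 were measured. Without GH, 9 were higher and 10 lower in null cells, and with GH 12 and 8. The called genes were 79.2% and 83.3% of the 24, against 47.5% and 45.3% of all genes. Plod2, the gene of a collagen lysyl hydroxylase, was higher in null cells in both states (1.80 ± 0.09 and 1.78 ± 0.09). Angptl4, which encodes a secreted inhibitor of lipoprotein lipase, stood at 8.35 and 8.31 in control cells without GH, 9.28 and 9.24 in control cells with GH, 10.29 and 10.31 in null cells without GH and 11.97 and 12.09 in null cells with GH. It was higher in null cells in both states (1.97 ± 0.09 and 2.77 ± 0.09) and rose with GH in control (0.93 ± 0.09) and null cells (1.73 ± 0.09), with an interaction of 0.80 ± 0.12 (adjusted p = 0.00265). Mxi1, which encodes an antagonist of MYC, was 2.58-fold higher in null cells without GH (1.37 ± 0.11, limma adjusted p = 6.15e-07). With GH the genotype difference did not pass (0.25 ± 0.11, limma adjusted p = 0.0859), though it did under 3 of 15 alternatives. Mxi1 rose with GH in control cells (0.55 ± 0.11) and fell in null cells (-0.56 ± 0.11), an interaction of -1.11 ± 0.16 (adjusted p = 0.0014). Its rise in control cells was not called without array 3 of the control cells with GH (limma adjusted p = 0.212, the highest over 15 alternatives), nor without either control array without GH. Its fall in null cells was not called without array 2 of either null group (limma adjusted p up to 0.0973). Stc1, a stanniocalcin gene, was higher in null cells without GH (1.24 ± 0.11) and Arnt2, a paralog of Arnt, was lower (-1.48 ± 0.15). Hif1an, the gene of an asparagine hydroxylase that restrains HIF, did not pass without GH (0.07 ± 0.12) and was higher in null cells with GH (0.53 ± 0.12).

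GH changed 4 of the 24 genes of this HIF list in control cells, 2 upward and 2 downward. Of all genes, 2.62% were called in this comparison, 1.72% upward and 0.896% downward. The 2 that fell were Cited2, which encodes a competitor of HIF for its coactivator (-0.59 ± 0.09, adjusted p = 0.00208), and Ak4, an adenylate kinase gene (-0.53 ± 0.10, adjusted p = 0.0158). Both were named after their values were seen. In null cells their differences were 0.01 ± 0.09 and 0.14 ± 0.10, and the interaction passed the test for both (0.59 ± 0.12 and 0.67 ± 0.15). The interaction call of Cited2 was lost without either control array with GH and without array 3 of either null group. That of Ak4 was lost without array 2 of the control cells without GH, array 3 of the control cells with GH or array 2 of either null group. The limma adjusted p then ran up to 0.0761 for Cited2 and 0.113 for Ak4, whose fall in control cells was also lost without array 2 of the control cells without GH or either control array with GH (up to 0.121). With the mean of all probe sets of Ak4 the interaction was 0.11 (adjusted p = 0.616) and the response in control cells -0.17 (adjusted p = 0.4).

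Further glycolysis genes were taken from a list of 19, of which 15 were measured, and Gapdh was not analysed here. Without GH 2 were higher and 6 lower in null cells, and with GH 2 and 7. The called genes were 53.3% and 60.0% of the 15, against 47.5% and 45.3% of all genes. Eno3, the muscle-type enolase gene, was higher in null cells without GH at 12.71 and 12.80 against 11.02 and 10.94 (1.78 ± 0.09, adjusted p = 1.17e-08), and Slc16a1, the gene of a monocarboxylate transporter that also carries lactate, was higher too (1.10 ± 0.10). Bpgm, which encodes the enzyme of a side branch of glycolysis (-1.29 ± 0.09), and Tigar, a p53 target gene whose product lowers glycolytic flux (-1.33 ± 0.11), were lower. Pkm, the pyruvate kinase gene, did not pass in any comparison, with differences between -0.01 and 0.06 for genotype and GH and an interaction of -0.04. None of the 15 passed for GH in control cells, where 2.62% of all genes did. In null cells 2 of the 15 (13.3%) were called, both lower with GH, against 11.7% of all genes called in either direction.

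The genes around pyruvate dehydrogenase and the pentose phosphate pathway were split as well. Of 18 measured, 7 were higher and 6 lower in null cells without GH, and 5 and 7 with GH. The called genes were 72.2% and 66.7% of the 18, against 47.5% and 45.3% of all genes. The pyruvate dehydrogenase phosphatase genes Pdp1 (1.09 ± 0.10) and Pdp2 (1.64 ± 0.10), whose products act against the PDK kinases, were higher in null cells without GH, as was Pdk1. Pcx, the pyruvate carboxylase gene (-1.20 ± 0.09), and the pentose phosphate genes Taldo1 (-1.46 ± 0.10) and Rpe (-1.20 ± 0.09) were lower. Pdk4, the gene of another PDK kinase, was lower in null cells with GH (-1.71 ± 0.21, adjusted p = 2.57e-05), at 8.89 and 8.56 in control cells against 7.33 and 6.70 in null cells, and had an interaction of -1.27 ± 0.30 (adjusted p = 0.0303). Its GH response alone did not pass in control (0.60 ± 0.21) or null cells (-0.67 ± 0.21, adjusted p from 0.0318 to 0.399 over the alternatives). The interaction of Pdk4 lost its call without array 2 of either control group or array 3 of either null group (limma adjusted p up to 0.15).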

How the data were processed

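RNA of 8 samples was measured on Affymetrix whole-genome mouse arrays. The authors deposited log2 values that were made with Partek 6.10.0511 and RMA, per the submitters' processing notes. They give no detection call, so a gene was treated as dim where a group mean fell under the first quartile over all genes, and no fold is then given. Of 45101 probe sets, 64 controls were left out, and 34945 of the others have 1 annotated gene, 932 several and 9160 none. Symbols were updated through Entrez identifiers for 34741, and the probe set with the highest mean stood for each of 18193 genes. Array medians lay between 6.891 and 6.956.

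A model with a mean for each of the 4 groups was fitted to all 8 arrays with limma 3.58.1 under R 4.3.3. It had 4 residual degrees of freedom and moderated variances. Every adjusted p and standard error is limma's, over all genes, or over all probe sets for the other probe sets of a gene. With dim genes left out, the fit ran over 13645 genes. The procedure was tested on simulated data. The number of arrays limits the precision. The genes, lists and naming rule (called members, and called genes of the further lists with at least a 2-fold difference, plus Pkm and Hif1an) were chosen with earlier results of these data known.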

Additional observations from a re-analysis of the deposited data

Results flagged for a closer look

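The GH response of 4 of the 35 genes differed between the genotypes by the interaction test, null minus control. For Hk2 the difference was 1.22 on the log2 scale, with limma adjusted p from 1.48e-05 to 0.00399 over 15 alternatives. For Ddit4 it was -0.69, with adjusted p from 0.000756 to 0.0445. For Eno2 it was -0.55, with adjusted p from 0.0161 to 0.124, and for Bnip3 it was -0.51, with adjusted p from 0.005 to 0.105, so both cross the threshold. Of the further genes, the interaction was 0.80 for Angptl4 and -1.11 for Mxi1, both called under all 15 alternatives, and 0.59 for Cited2, 0.67 for Ak4, -0.58 for Pdk2 and -1.27 for Pdk4, which lost their calls under at least 4 of the 15. Pdk2 was named after its values were seen. Groups of 2 arrays are too small for a check of outlying arrays.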

How the results depend on the processing

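Leaving out 1 array gave 19 to 22 called genes for null against control without GH, 18 to 25 with GH, 4 in each fit for GH in control cells, 5 to 11 for GH in null cells and 2 to 3 for the interaction. Over all genes the same fits called 7633 to 8405, 6953 to 8477, 295 to 460, 818 to 2409 and 437 to 872, so the shares of all genes given for GH and the interaction also depend on single arrays. Requiring at least 1.5-fold gave 12, 13, 4, 3 and 2, by its construction. Replicate differences correlated from -0.279 to 0.129 between groups, which cannot show whether arrays of the same number were prepared together. A model with a replicate block gave 22, 22, 4, 8 and 3. Using the probe set with the highest group mean, an alternative chosen after seeing the data, turned Egln3 from -0.16 to 0.43 for null against control with GH and from -0.07 to 0.37 for GH in null cells, with the other probe set in use, and called Epas1 in both genotype comparisons. The other settings (mean of probe sets, common median, renewed quantile normalization, dim genes left out, variance trend) gave 22 to 26, 22 to 24, 4, 8 to 13 and 4 to 5. With the mean of probe sets Adpgk turned from 0.08 to -0.275 for null against control with GH. No called gene changed direction.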
